A study of Mus musculus with 30 samples.

Results

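CD4 T cells lacking Bcl6 were compared with TH2 cells in 6 of the 30 libraries of the series, of which 2 are labelled Bcl6KO and 4 are labelled TH2. The libraries were taken by their labels alone: 3' QuantSeq libraries with either title, both sorted as CD4+hCD2+ cells. All cells came from spleens of C57BL/6 mice 8 weeks of age, and the Lexogen 3' QuantSeq kit was used on 10 ng of total RNA. The genotype given for Bcl6KO is Bcl6f/fCd4cre x OTII Tg, in which Cre made from the Cd4 promoter cuts floxed Bcl6 alleles out of T cells during their development in the thymus. The genotype given for TH2 is OTII Tg IL-4BacTg x OTII Tg. Both sides carry OTII, a transgenic T cell receptor that sees an ovalbumin peptide on MHC class II. The Bcl6KO label names no IL-4BacTg although the gate asks for hCD2, so the loss of Bcl6 and any other difference in genotype cannot be told apart. Immunisation, the number of animals, pooling and the day of sorting are not stated in the labels. The replicates may thus be technical ones. The p-values cover no more than the spread among replicates, which was estimated over all 22 QuantSeq libraries of 9 groups.

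A pair of further groups served as references. Il4KO cells (n = 2) have the genotype Il4-/- x OTII Tg and were sorted as CD4+ cells. TFH CXCR5hi cells (n = 3) come from OTII Tg mice and were sorted as CD4+CD45.2+ cells high for CXCR5 and positive for PD1.

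Bcl6 is a zinc finger repressor that recruits corepressors to DNA and is required for CD4 T cells to become follicular helper (TFH) cells, the T cells that help B cells in germinal centres. In T cells it is known to oppose Prdm1, the gene of its antagonist Blimp-1, and to restrain genes of TH1, TH2 and recirculating cells. TH2 cells depend on the transcription factor Gata3 and make interleukins 4, 5 and 13. Many DNA sites of Bcl6 resemble those of STAT factors, which carry cytokine signals to the nucleus.

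The Bcl6KO libraries held 3.12 and 2.05 M counts and the TH2 libraries 2.56, 2.96, 3.02 and 1.85 M, with 9145, 7904, 8618, 9194, 8925 and 7456 genes at 10 counts or more. Levels are given as CPM, counts per 1 M counts of the library, and differences as log2 ratios ± standard error (SE) from the fit. Because 3' tags are counted, CPM was not divided by transcript length. The defining T cell markers were present in all 6 libraries: Cd4 stood at 448 and 411 CPM in Bcl6KO and at 361 to 542 CPM in TH2. Trbc2, a constant segment of the T cell receptor, stood at 2965 and 2772 CPM against 2829 to 3809 CPM. Ms4a1, Lyz2 and Cd8a had no count in any of the 6 libraries. Summed over 15 B cell markers the level was 142 to 169 CPM against 60.6 to 169 CPM, most of it Ighm, and over 16 myeloid markers it was 7.42 to 95.1 against 39.5 to 94.7 CPM. The sum of 14 CD8 and NK cell markers, mostly Gzma, was 239 to 398 against 104 to 968 CPM. For 8 erythroid and platelet markers it was 0.645 to 27.4 against 0 to 72.9 CPM, and for 8 basophil and mast cell markers 11.3 to 15.6 against 0 to 15.7 CPM. No member of these 5 marker lists passed the test in either direction. In bulk samples, fewer cells of a type and less RNA per cell cannot be told apart.

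The similarity of libraries depended on the genes compared and on the TH2 libraries. Across genes, Pearson's r of log2(CPM + 1) was 0.751 between the Bcl6KO libraries, 0.727 to 0.770 over 6 pairs of TH2 libraries (median 0.747) and 0.726 to 0.775 over 8 mixed pairs (median 0.748). Among genes of at least 200 CPM, r was 0.932 between the Bcl6KO libraries, 0.912 to 0.936 between them and TH2 replicates 3 and 4, and 0.876 to 0.891 between them and TH2 replicates 1 and 2. The share of genes apart by more than 2-fold was 14.7% in the Bcl6KO pair, 15.0% to 19.9% in the mixed pairs and 12.8% to 19.7% in the TH2 pairs. These values are descriptions, since genes are not independent replicates and low counts weigh on all pairs. The TH2 libraries themselves fall into a pair with Xist, the RNA of the inactive X chromosome (replicates 1 and 2, 339 and 383 CPM), and a pair with the Y-linked Ddx3y (replicates 3 and 4, 100.5 and 28.7 CPM). Both Bcl6KO libraries held Xist (219 and 221 CPM) and no Ddx3y count. The running order of the library titles parts the TH2 libraries in the same way. Each of TH2 replicates 3 and 4 is followed there by a Bcl6KO and then an Il4KO library. TH2 replicates 1 and 2 come directly before libraries titled TFH2. Whether this order marks a batch is not stated in the labels, so the TH2 libraries may not be equal controls. Where a list or gene differed much between these pairs, its value against each pair is given below.

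Few genes passed the test between Bcl6-deficient cells and TH2 cells. Of 14383 genes tested, 2 rose and 1 fell at an adjusted p under 0.05, which are 0.0139% and 0.00695% of all genes and 0.0209% together. Leaving out any of the 6 libraries raised the number of calls, to between 6 without Bcl6KO replicate 2 and 39 without Bcl6KO replicate 1 or TH2 replicate 2, and DESeq2 called 125 genes. Of these, Ipcef1, which was higher in Bcl6KO cells, and S100a4, which was lower, are described below. At an unadjusted p under 0.05 the counts were 438 higher (3.05%) and 399 lower (2.77%), 5.82% together, and the libraries of both groups did not overlap for 760 genes higher (5.28%) and 622 lower (4.32%), 9.61% together. The median log2 ratio of all genes was -0.044. Precision depended on level: the median SE of a log2 ratio was 3.18 for genes under 5 CPM and 0.33 for genes of at least 200 CPM. In simulated data for this comparison, the test found 18% of genes raised 4-fold and 4% of genes lowered 4-fold. At 16-fold it found 86% and 50%. A gene that did not pass may therefore still differ. In the same simulated data, 5 genes that had not been changed were called.

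**Figure D1:**
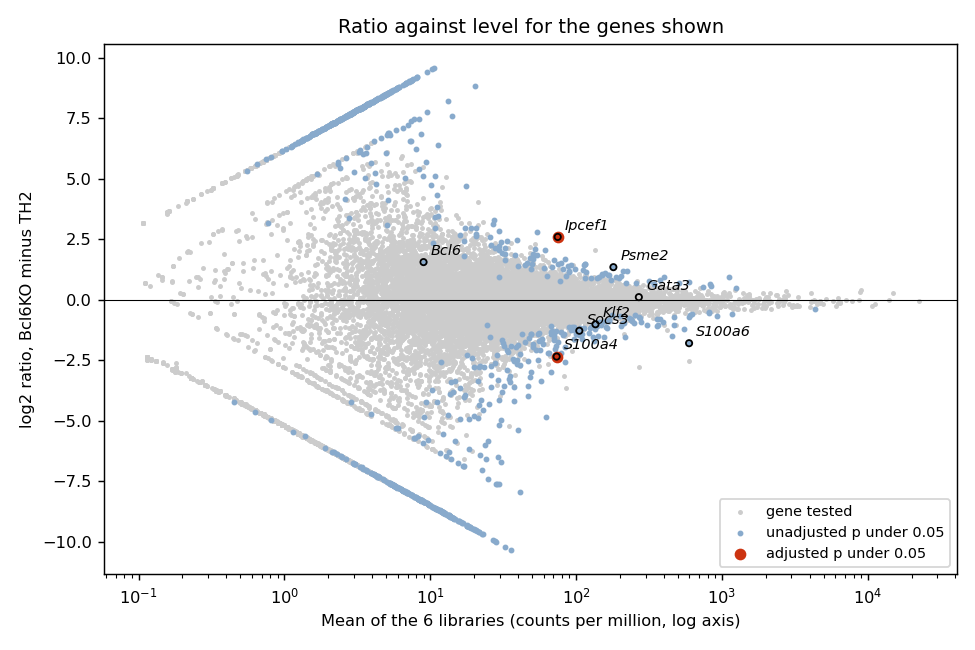
Each point is a gene (genes not reported here are left out), placed by its mean CPM over the 6 libraries (x axis, log scale) and its log2 ratio of Bcl6KO minus TH2 (y axis). Ipcef1 and S100a4, with an adjusted p under 0.05, are red, genes with an unadjusted p under 0.05 are blue, and ratios spread widely below about 20 CPM, where the straight edges are genes with no count in either Bcl6KO or TH2.

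Ipcef1 (chr10:6885796-7052478 on GRCm38, minus strand) encodes a partner of cytohesins, the exchange factors that switch on ARF GTPases at membranes. TH2 replicates 1 to 4 held 29.8, 31.7, 35.9 and 14.1 CPM, and the Bcl6KO replicates 207 and 131 CPM. The groups did not overlap, and the lower Bcl6KO library stood well above every TH2 library. The log2 ratio was 2.59 ± 0.43 (edgeR adjusted p = 0.000307). Il4KO cells, at 17.3 and 38.6 CPM, overlapped the TH2 range. All groups sorted through a TFH gate were high, with means from 116 to 229 CPM, so that in Ipcef1 the Bcl6KO libraries stood among the TFH and TFH2 libraries rather than the TH2 libraries. When only the 6 libraries were fitted, the ratio was 2.60 and the adjusted p 0.416.

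S100a4 (chr3:90603771-90606045 on GRCm38, plus strand) encodes a small calcium-binding protein of motile and memory T cells. The level was 114, 119, 101 and 68.8 CPM in TH2 replicates 1 to 4 and 26.4 and 12.8 CPM in the Bcl6KO replicates. Every Bcl6KO value was under the lowest TH2 value. The log2 ratio was -2.35 ± 0.47 (edgeR adjusted p = 0.00841). Il4KO cells held 54.3 and 21.0 CPM, also under all TH2 libraries, and the TFH and TFH2 groups had means from 116 to 590 CPM. The call did not hold without Bcl6KO replicate 2 (log2 ratio -1.93, adjusted p = 0.568), in the fit of the 6 libraries alone (adjusted p = 0.846) or among genes of at least 20 CPM (adjusted p = 0.0655).

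**Figure D2:**
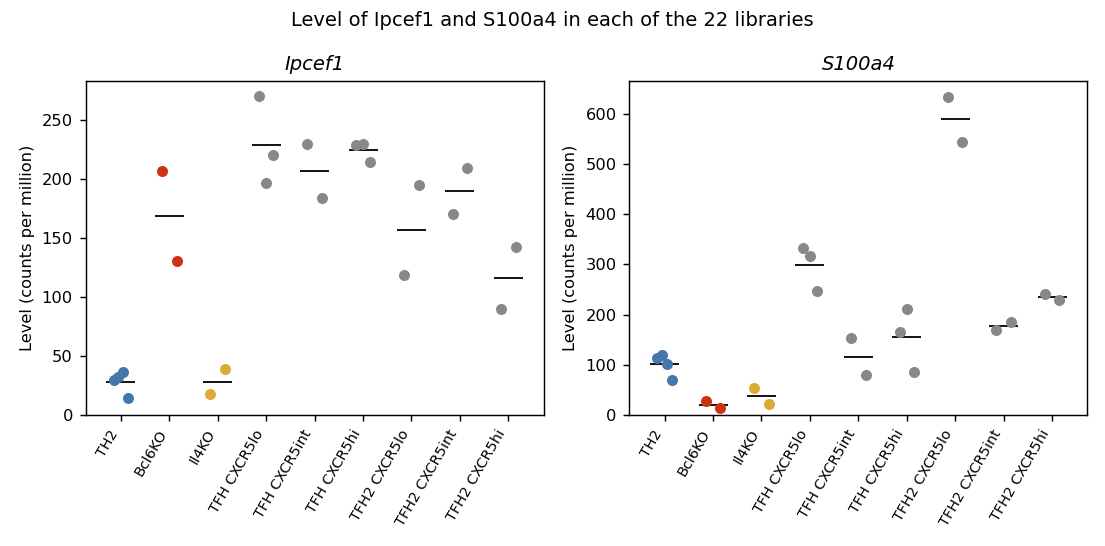
CPM (y axis, linear, from 0) of Ipcef1 and S100a4 in the 22 QuantSeq libraries, with 1 point per library and a line at each group's mean. Bcl6KO points stand at 207 and 131 CPM for Ipcef1 and at 26.4 and 12.8 CPM for S100a4, outside the TH2 range in each case.

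The promoters of these genes are printed because the deleted protein is a repressor that binds DNA. The sequences are from RefSeq on GRCm38.p6 and cover the 250 bases before a start site, 5′ to 3′ on the gene's strand. S100a4 has 1 entry (chr3:90603520-90603769, plus strand) and Ipcef1 has 3, of which the farthest upstream is shown (chr10:7023186-7023435, minus strand). Neither printed window overlaps a GENCODE M21 exon. The printed Ipcef1 window lies inside the gene's GENCODE span, and the bases before the GENCODE start at 7052478 were not searched. The other Ipcef1 windows overlap its exons by 225 and 44 of 250 bases.
S100a4: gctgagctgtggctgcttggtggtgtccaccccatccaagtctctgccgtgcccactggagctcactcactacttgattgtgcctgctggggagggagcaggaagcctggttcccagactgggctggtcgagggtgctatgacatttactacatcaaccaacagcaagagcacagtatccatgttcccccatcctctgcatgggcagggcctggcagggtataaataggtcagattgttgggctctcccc
Ipcef1: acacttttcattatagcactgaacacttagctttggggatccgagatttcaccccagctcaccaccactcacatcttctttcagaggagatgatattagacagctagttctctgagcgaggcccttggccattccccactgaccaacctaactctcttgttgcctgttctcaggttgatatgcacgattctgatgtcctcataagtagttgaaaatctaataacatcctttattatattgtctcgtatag
These windows were searched for TTCNNNGAA, the core of STAT sites, whose reverse complement is the same motif, and on both strands for TTCCTAGAA, a Bcl6 site that is 1 form of the first motif. Neither motif occurs in the printed windows or in the other 2 Ipcef1 windows, so no base is in capitals. Of 32851 RefSeq windows of this length, 7.02% hold the first motif and 0.347% the other. For comparison, 1 of 2 Irf1 windows and the Socs3 window, genes on the interferon and the STAT and SOCS lists below, hold TTCNNNGAA, shown in capitals with 10 bases on either side.
Irf1: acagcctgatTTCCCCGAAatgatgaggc
Socs3: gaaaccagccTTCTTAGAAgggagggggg
The Irf1 site is at chr11:53769914-53769942 (plus strand) and the Socs3 site at chr11:117969502-117969530 (minus strand). Irf1 and Socs3 were picked by hand, so the contrast with S100a4 and Ipcef1 is only an illustration. The Socs3 window lies inside the gene's GENCODE span and overlaps a Socs3 exon by 77 of 250 bases. A match is a run of letters, not a measured binding site.

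STAT and SOCS genes more often lay below the TH2 level than above it. Of 14 STAT and SOCS genes tested, 4 had a log2 ratio above 0 and 10 below, and the list's median log2 ratio was -0.45. The share above 0 over all genes was 40.4%. Stat3, the factor downstream of interleukins 6 and 21, stood at 377 and 346 CPM in Bcl6KO and 343 to 613 CPM in TH2, a log2 ratio of -0.30 ± 0.31. Stat6, which carries the interleukin 4 signal, stood at 26.1 and 9.46 CPM against 0 to 47.5 CPM. Socs3, a feedback inhibitor of cytokine receptors, held 182, 120, 105 and 118 CPM in TH2 replicates 1 to 4 and 52.9 and 54.9 CPM in Bcl6KO. Its groups did not overlap, and its log2 ratio of -1.28 ± 0.38 did not pass the test over all genes (unadjusted p = 0.000953, adjusted p = 0.471), although DESeq2 called it (adjusted p = 0.000747). Il4KO cells held 75.7 and 75.5 CPM of Socs3.

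Of 22 cytokine receptor genes tested, none passed in either direction, and 2 had an unadjusted p under 0.05 in each direction. The log2 ratio was above 0 for 15 and below for 7, and the median was 0.30. Over all genes, 3.05% were higher and 2.77% lower at an unadjusted p under 0.05. Il4ra, the receptor chain for interleukins 4 and 13, was the most abundant, with 2368 and 1940 CPM in Bcl6KO and 1488 to 2272 CPM in TH2 (log2 ratio 0.27 ± 0.47). Il2rg, the chain shared by several interleukin receptors, held 1269 and 1138 CPM against 920 to 1016 CPM, so its groups did not overlap, but the log2 ratio of 0.33 ± 0.24 had an unadjusted p of 0.166. Il9r had no count in Bcl6KO and 0.392, 1.02, 8.89 and 16.2 CPM in TH2, at least 5.56-fold lower with 3 counts put in each empty library (adjusted p = 0.461). Il1rl1, the interleukin 33 receptor of TH2 cells, was seen in a single Bcl6KO library, at 43.2 CPM in replicate 1 and 0 in replicate 2, against at most 0.392 CPM in TH2. Tgfbr2 stood at 116 and 44.5 CPM against 10.3 to 57.6 CPM (adjusted p = 0.847).

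Interferon response genes more often lay above the TH2 level than below it, and none of the members given here passed the test. Of 20 tested, 5 had Bcl6KO libraries entirely above TH2 and none entirely below, 12 had a log2 ratio above 0 and 6 below, and the median was 0.39. Of all genes, 5.28% lay entirely above TH2, 4.32% entirely below, and 40.4% had a log2 ratio above 0. Isg20, an exonuclease, held 116 and 98.0 CPM against 40.3 to 81.6 CPM, a log2 ratio of 0.78 ± 0.38 (adjusted p = 0.847). Zbp1, a sensor of nucleic acids, held 174 and 79.0 CPM against 30.3 to 96.9 CPM, so only Bcl6KO replicate 1 left the TH2 range. Ifit1 held 30.0 and 15.1 CPM against 0 to 9.23 CPM, and Ifit3 had no count in Bcl6KO against 0 to 4.43 CPM. Ifi27l2a, the most abundant member in TH2 after Irf1, stood at 137 and 224 CPM against 430, 446, 108 and 86.1 CPM in TH2 replicates 1 to 4, so its direction differed between the TH2 pairs. The list's median was 0.068 against TH2 replicates 1 and 2 and 1.03 against replicates 3 and 4.

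Genes of MHC class I antigen presentation and of the interferon gamma response were listed after Psme2 and Iigp1 had been seen to be high, so the following values describe these libraries only. Of 24 genes none passed the test, 20 had a log2 ratio above 0, 9 had both Bcl6KO libraries above all TH2 libraries and none below, and the median was 0.54. Over all genes, 5.28% had both Bcl6KO libraries above all TH2 libraries, 4.32% had both below, and 40.4% had a log2 ratio above 0. Psme2, a subunit of the PA28 activator of the proteasome, held 144, 157, 107 and 68.2 CPM in TH2 replicates 1 to 4 and 244 and 362 CPM in Bcl6KO (log2 ratio 1.35 ± 0.36, adjusted p = 0.26). Iigp1, an interferon-induced GTPase, held 15.7, 30.3, 20.5 and 5.96 CPM in TH2 and 142 and 108 CPM in Bcl6KO (log2 ratio 2.78 ± 0.94, adjusted p = 0.701). In both genes the Bcl6KO libraries stood clear of the TH2 libraries, and DESeq2 called both (adjusted p = 0.00609 and 0.0407). The log2 ratio of Psme2 was 1.01 against TH2 replicates 1 and 2 and 1.80 against replicates 3 and 4. That of Iigp1 was 2.44 and 3.25. Of these, edgeR called only Psme2 against replicates 3 and 4 (adjusted p = 0.0339). Gbp2, another interferon-induced GTPase, held 46.8 and 52.5 CPM against 8.18 to 12.9 CPM. The immunoproteasome subunits did not all share this order: Psmb8 held 467 and 514 CPM against 284 to 373 CPM, whereas Psmb9 held 134 and 201 CPM against 141 to 212 CPM. B2m, the light chain of MHC class I, held 2563 and 2658 CPM against 1895 to 2527 CPM, and Irf1 693 and 660 CPM against 534 to 589 CPM. Tap2, a peptide transporter subunit, lay on the other side, at 64.2 and 94.2 CPM against 77.0 to 160 CPM.

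**Figure D3:**
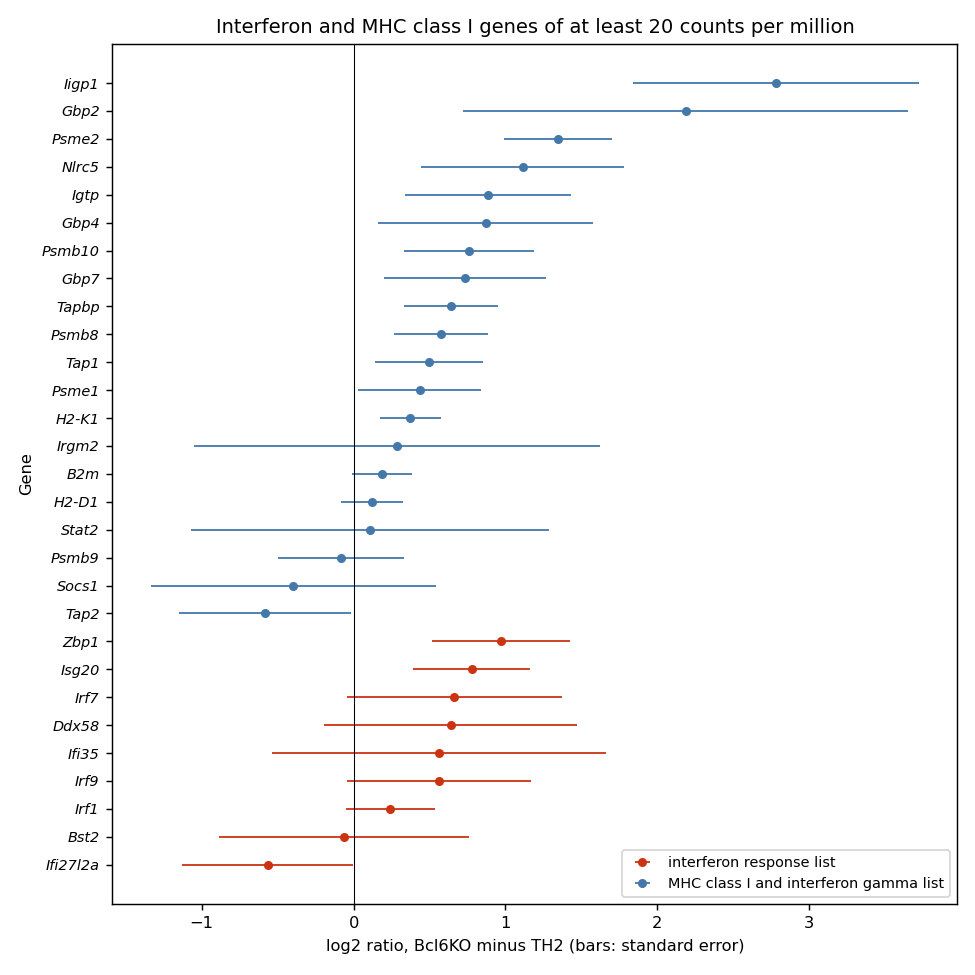
Log2 ratios of Bcl6KO minus TH2 (x axis, bars ± SE from the fit) for genes of at least 20 CPM on average over both groups: 9 interferon response genes in red and 20 genes of the list chosen after values were seen in blue. Of these, 7 and 17 lie above 0, and none of the genes shown passed the test.

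Among activation and memory genes S100a4 fell, and no other member passed the test. Of 20 tested, 7 had a log2 ratio above 0 and 13 below, and the median was -0.31. An unadjusted p under 0.05 was found for 5, all lower. Over all genes, 2.77% were lower at that p, and 40.4% had a log2 ratio above 0. The list's median was -0.50 against TH2 replicates 1 and 2 and -0.0059 against replicates 3 and 4. S100a6, the neighbour of S100a4 in its gene cluster, held 1120.0, 1407, 332 and 268 CPM in TH2 replicates 1 to 4 and 197 and 253 CPM in Bcl6KO. The groups did not overlap, but replicates 3 and 4 were close to Bcl6KO, and the log2 ratio of -1.80 ± 0.50 (adjusted p = 0.572) was -2.49 against replicates 1 and 2 and -0.40 against replicates 3 and 4. Crip1, Anxa2, Vim and Lgals1 were likewise higher in TH2 replicates 1 and 2 than in replicates 3 and 4. Crip1, for example, held 951 and 1008 CPM there, 318 and 461 CPM in replicates 3 and 4, and 374 and 213 CPM in Bcl6KO. Cd44, the memory cell adhesion receptor, stood at 99.98 and 64.8 CPM against 64.4 to 134 CPM, and Cd52 at 1431 and 1433 CPM against 1565 to 2014 CPM (log2 ratio -0.32 ± 0.22).

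TH2 identity genes showed no difference that passed the test. Of 13 tested, none passed in either direction, 1 had an unadjusted p under 0.05 each way, and the median was 0.11. Over all genes, 3.05% were higher and 2.77% lower at that p. Gata3 held 239, 328, 218 and 266 CPM in TH2 replicates 1 to 4 and 248 and 318 CPM in Bcl6KO, a log2 ratio of 0.11 ± 0.39 (adjusted p = 1), and the Bcl6KO values lay inside the TH2 range. Il4KO cells held 159 and 162 CPM of Gata3. Ecm1, which TH2 cells use in leaving lymph nodes, held 191 and 149 CPM against 189, 305, 38.0 and 42.2 CPM. The cytokine genes themselves were scarce in these cells, which were not restimulated as far as the labels say. Il4 had no count in either Bcl6KO library, and among TH2 libraries was found in replicate 3 only, at 13.7 CPM. Il13 was found in Bcl6KO replicate 2 at 27.4 CPM and not in replicate 1, against 2.35, 0, 0 and 3.25 CPM in TH2, and Il5 had no count in any of the 6 libraries. With 3 counts as the limit that a count of 0 allows, an empty Bcl6KO library leaves room for 0.961 or 1.47 CPM, counting error only.

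Bcl6 tags were few on both sides. The level of Bcl6 was 0.392, 13.3, 2.05 and 5.95 CPM in TH2 replicates 1 to 4 and 6.77 and 25.6 CPM in Bcl6KO (log2 ratio 1.55 ± 0.70, adjusted p = 0.847). Bcl6KO libraries thus held Bcl6 tags, and their range overlapped that of TH2. Which exons are floxed is not stated in the labels, and a tag at the 3′ end can lie outside the deleted part, so these counts do not check the deletion. TFH CXCR5hi libraries held 93.4 to 142 CPM, above Bcl6KO (log2 ratio of Bcl6KO -2.90, adjusted p = 0.0321).

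No gene known as a target of repression by Bcl6 passed the test against TH2. Of 13 tested, none rose or fell against TH2, and 1 had an unadjusted p under 0.05 (lower), as had 2.77% of all genes. The median was -0.24, with -0.47 against TH2 replicates 1 and 2 and 0.22 against replicates 3 and 4. Prdm1 held 79.6, 47.7, 30.8 and 27.6 CPM in TH2 replicates 1 to 4 and 30.3 and 36.9 CPM in Bcl6KO (log2 ratio -0.47 ± 1.93). Id2, an inhibitor of E proteins that is high in non-follicular T cells, held 940 and 741 CPM against 873 to 1229 CPM (log2 ratio -0.31 ± 0.30). Both ratios were smaller than or about the size of their error. Klf2, which drives the sphingosine phosphate receptor gene S1pr1 and so the exit of T cells from lymphoid organs, held 182, 129, 170 and 173 CPM in TH2 and 53.2 and 109 CPM in Bcl6KO. Both Bcl6KO libraries were under all TH2 libraries, with a log2 ratio of -1.01 ± 0.40 that did not pass (adjusted p = 0.847). S1pr1, singled out after its values were seen, had the same order at 143 and 171 CPM against 183 to 283 CPM (adjusted p = 0.865). Selplg and Il7r overlapped fully, the latter with 657 and 637 CPM against 300.5 to 757 CPM.

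Against TFH CXCR5hi cells, from which Bcl6KO cells differ in gate and in genotype, 5 of the same 13 genes were higher and 1 was lower among 118 genes higher (0.82%) and 207 lower (1.44%), together 2.26% of all genes. Id2 was higher by 3.17 ± 0.32 on the log2 scale and Gata3 by 1.72 ± 0.41, with S1pr1, Selplg and Runx3 the others. Gpr183, a receptor that guides cells in the spleen, was lower in Bcl6KO by a log2 ratio of -2.01 ± 0.45. The comparisons with TH2 and with TFH cells share the Bcl6KO libraries.

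Many TFH genes were absent or scarce on both sides. Of 20 tested against TH2, none passed, and 1 higher and 5 lower had an unadjusted p under 0.05. Over all genes, 3.05% were higher and 2.77% lower at that p. The list's median was -0.83, with -0.74 against TH2 replicates 1 and 2 and -0.080 against replicates 3 and 4. Cxcr5, the follicle homing receptor, and the cytokine gene Il21 had no count in any of the 6 libraries. Pdcd1, the gene of PD1, had none in Bcl6KO and at most 0.541 CPM in TH2. In all, 10 of the 20 genes had no count in Bcl6KO, and 4 had none in any of the 6 libraries. Tox and S1pr2 were also absent from Bcl6KO, but in TH2 they were found in some libraries only, Tox at 0, 36.8, 0.684 and 11.9 CPM and S1pr2 at 14.9, 9.88, 6.84 and 0 CPM. Tnfsf8, the ligand of CD30, held 81.6, 69.8, 80.3 and 97.4 CPM in TH2 and 31.0 and 45.9 CPM in Bcl6KO (log2 ratio -1.10 ± 0.38, adjusted p = 0.735), without overlap. Slamf6 held 0 and 9.94 CPM against 3.92 to 53.3 CPM. Maf, shared by TFH and TH2 cells, stood at 1032 and 874 CPM against 810 to 1496 CPM.

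Set against TFH CXCR5hi cells, 16 of the same 20 genes were lower in Bcl6KO and none was higher, with a median log2 ratio of -7.37 against -0.0026 over all genes. Of all genes, 1.44% were lower and 0.82% higher. The reference cells were sorted on CXCR5 and PD1, so the order of Cxcr5 and Pdcd1 was set by the gate. The list was chosen with earlier results of these data known, so its counts are a description. Tox2, the most abundant of those absent from Bcl6KO, had a mean of 917 ± 209.6 CPM (SD, n = 3) in TFH CXCR5hi cells. Cxcr5 had a mean of 104 ± 26.8 CPM and Pdcd1 of 188 ± 33.3 CPM there. Maf differed far less, with a log2 ratio of -1.38 ± 0.29. Icos, Ascl2, Cd200 and Btla did not pass the test.

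**Figure D4:**
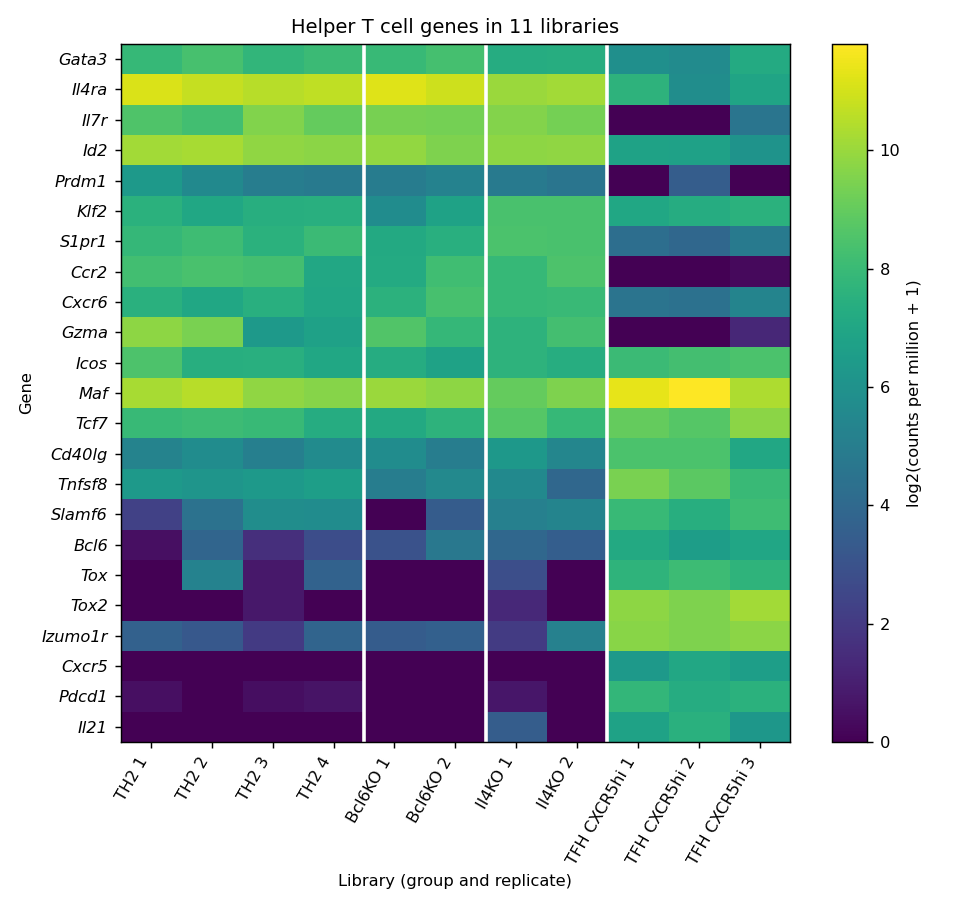
Colour gives log2(CPM + 1) of 23 helper T cell genes (rows) in 11 libraries (columns: 4 TH2, 2 Bcl6KO, 2 Il4KO, 3 TFH CXCR5hi, parted by white lines). Bcl6KO columns resemble TH2 columns in most rows, with Gata3, Il4ra and Id2 high and Cxcr5 and Il21 at 0, and Klf2 is lowest in Bcl6KO.

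Genes linked to Bcl6 in other ways were mostly near the TH2 level. Among 19 inducers and partners of Bcl6, 7 had a log2 ratio above 0 and 11 below, and the median was -0.22. Over all genes, 40.4% had a log2 ratio above 0. Batf, an AP-1 family factor that acts early in TFH cells, held 88.7 and 87.1 CPM against 18.4 to 87.9 CPM, and Tcf7 143 and 200 CPM against 159 to 275 CPM. Among 14 corepressors and related BTB zinc finger genes none passed, and the median was -0.032. Ncor1, a corepressor that Bcl6 binds, stood at 469 and 302 CPM against 298 to 558 CPM.

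Genes that did not pass were also taken in order of p, among those whose groups did not overlap, so that the lack of overlap is how they were chosen. Some of them are also list members. On the lower side the nearest was Myb, a transcription factor of immature and activated lymphocytes. It had no count in Bcl6KO and 1.18, 14.0, 13.3 and 3.25 CPM in TH2, which is at least 6.65-fold lower (adjusted p = 0.0584), and it was called when any TH2 library was left out but not without Bcl6KO replicate 1 (adjusted p = 0.176) or 2 (adjusted p = 0.279). Atp8a1 and Unc93b1 were likewise empty in both Bcl6KO libraries, at least 22.5- and 25.0-fold below the TH2 mean. Unc93b1 varied within TH2, at 1.96, 26.6, 43.4 and 47.6 CPM in replicates 1 to 4. Ccdc69 was empty in Bcl6KO too, but its TH2 level rested mainly on replicate 1, at 120.0, 0.341, 11.6 and 35.7 CPM in replicates 1 to 4. These 3 genes had adjusted p from 0.134 to 0.348. Cotl1, an actin-binding protein, was the most abundant of them, at 722, 674, 445 and 430 CPM in TH2 and 294 and 260.3 CPM in Bcl6KO (log2 ratio -1.03 ± 0.26, adjusted p = 0.221). Others on the lower side were Rab1b, Tjap1, Ubald2, Tmed4, Cct2, Lrmp, Ccpg1 and Il9r.

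On the higher side, Bclaf1, named for its binding to Bcl2 family proteins, held 338 and 376 CPM against 115 to 212 CPM (log2 ratio 1.20 ± 0.35, adjusted p = 0.471). Prrc2c held 634 and 552 CPM against 272 to 341 CPM, and Rest, a repressor of neuronal genes, held 116 and 195 CPM against 26.6 to 90.6 CPM. In each of these genes the lower Bcl6KO library was above the highest TH2 library. Tbck had no count in TH2 and was at least 17.6-fold higher (adjusted p = 0.572). Slc35a1 had none in TH2 either, and 9.35 and 35.5 CPM in Bcl6KO (adjusted p = 0.522). Zgpat held 54.2 and 68.1 CPM in Bcl6KO and a single count in the 4 TH2 libraries. Others were Mgat5, Pcbp4, Dhrs7b, Sec22a and Ice2, none of them above 45 CPM in Bcl6KO.

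The cell cycle list showed how much the choice of TH2 libraries weighs. None of 20 genes passed, and the median log2 ratio of -1.75 was -2.43 against TH2 replicates 1 and 2 and 1.12 against replicates 3 and 4. Top2a, the topoisomerase of dividing cells, held 481 and 543 CPM in TH2 replicates 1 and 2, 37.3 and 15.7 CPM in replicates 3 and 4, and 103 and 98.0 CPM in Bcl6KO. Bcl6KO libraries therefore lay between the TH2 pairs. Ccna2, cyclin A2, held 123 and 48.7 CPM in replicates 1 and 2 and no count in replicates 3 and 4, against 0.323 and 0 CPM. The activation and memory list moved in the same way, from a median of -0.50 to -0.0059. Sex transcripts, these genes and the running order of the titles part the TH2 libraries together, and their part in the other results was not tested. Ipcef1 and S100a4 were called against each pair. So were genes that the main fit did not call, among them Myb, Atp8a1, Ikzf2, Nr4a1 and Tox. Both fits share the Bcl6KO libraries.

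**Figure D5:**
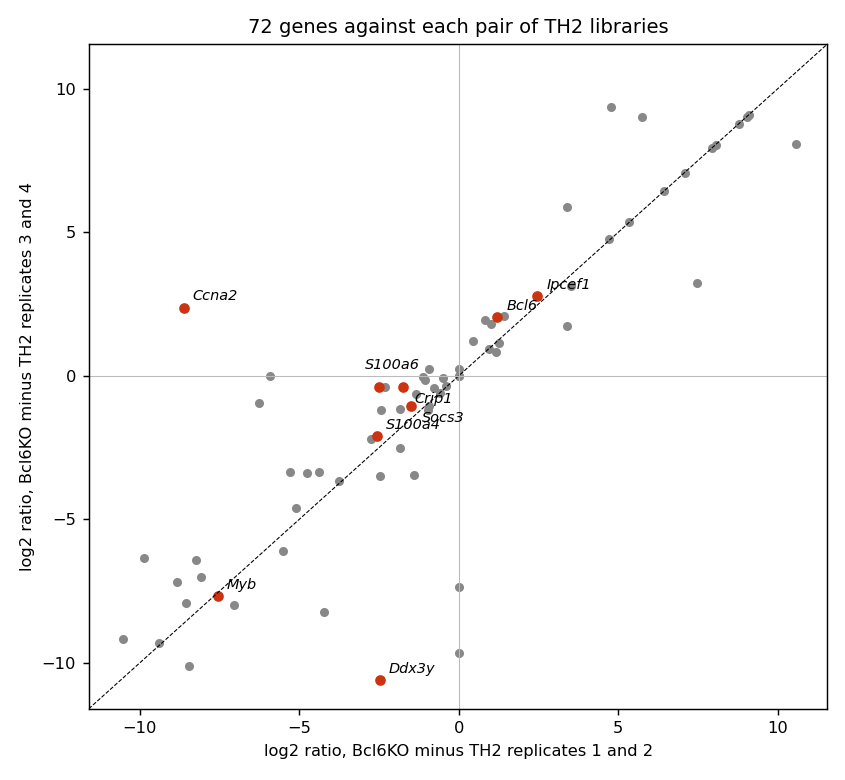
Log2 ratios of Bcl6KO minus TH2 replicates 1 and 2 (x axis) and minus TH2 replicates 3 and 4 (y axis) for 72 genes chosen by the naming rule, with the dashed line marking equal ratios. Ipcef1 (2.46 and 2.76) and S100a4 (-2.56 and -2.09) lie near the line, whereas S100a6 (-2.49 and -0.40) and Ccna2 lie off it.

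The other lists held no gene that passed. TH1 and cytotoxic genes had a median of 0.76 (0.59 when genes empty in 1 group take their bound) over 18 tested, with Cxcr6 at 193 and 324 CPM against 127 to 180 CPM, Cxcr3 at 49.99 and 53.5 CPM against 15.4 to 56.3 CPM, and Gzma at 390 and 231 CPM against 81.7 to 890 CPM. Ifng had no count in Bcl6KO and 3.14 CPM in TH2 replicate 1 only. Naive and recirculating genes had a median of -0.40 over 18 tested, with Satb1 at 627 and 732 CPM against 677 to 1314 CPM. Regulatory T cell genes had a median of -1.50 over 13, which was -1.84 against TH2 replicates 1 and 2 and 0 against replicates 3 and 4, with Nrp1 at 20.6 and 2.84 CPM against 40.9 to 86.8 CPM and Ikzf2 absent from Bcl6KO and at 0 to 20.5 CPM in TH2. TH17 genes had a median of -1.68 over 5, and of -2.40 and 0 against these pairs.

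Immediate early genes, the marks of recent stimulation, had a median of -0.43 over 19 tested. Nr4a1, which T cell receptor signals induce, had no count in Bcl6KO and 24.7, 51.1, 6.15 and 0 CPM in TH2, whereas the abundant Junb stood at 1498 and 1783 CPM against 1528 to 2335 CPM. T cell receptor signalling genes had a median of -0.096 over 20, with Trac at 656 and 663 CPM against 722 to 1450 CPM (log2 ratio -0.67 ± 0.26, adjusted p = 0.823). Chemokine receptor and positioning genes had a median of -0.21 over 17, Bcl2 family genes 0.15 over 17 and mitochondrially encoded genes 0.072 over 11. Glycolysis and hypoxia genes had a median of -0.26 over 16. Among them Hk2, a hexokinase, held 8.39 and 0 CPM in Bcl6KO and 111, 69.8, 39.7 and 49.8 CPM in TH2 (log2 ratio -3.96 ± 1.17, adjusted p = 0.471), without overlap. Ribosomal protein genes had a median of -0.20 over 20, and their summed level was 41425 and 41842 CPM against 45146 to 47438 CPM. No Bcl6KO value in that sum reached the lowest TH2 value, and 7 of the 20 genes lay wholly below TH2 and none above, against 4.32% and 5.28% of all genes.

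Bcl6KO and Il4KO cells, which differ in genotype and in the hCD2 gate, were also set against each other. They differ in sex transcripts as well: the Il4KO libraries held 1.24 and 0 CPM of Xist and 82.8 and 72.4 CPM of Ddx3y, the reverse of Bcl6KO. Genotype, gate and sex cannot be told apart here. Of 14383 genes, 6 were higher in Bcl6KO (0.0417%) and 2 lower (0.0139%), 0.0556% together. Nlrc5, the transactivator of MHC class I genes, held 144 and 72.4 CPM in Bcl6KO and 0 and 2.41 CPM in Il4KO, a log2 ratio of 6.47 ± 1.05 (adjusted p = 0.000108), and 26.0 to 95.7 CPM in TH2. Here both Il4KO libraries lay below the TH2 range. The same order of Il4KO and TH2 was found for Klf4, with 11.9 and 14.2 CPM in Bcl6KO, none in Il4KO and a mean of 10.8 ± 8.00 CPM in TH2, and for Itpr1, Hspa5 and Pttg1. Hspa5, the endoplasmic reticulum chaperone BiP, held 466 and 407 CPM against 142 and 171 CPM in Il4KO (log2 ratio 1.48 ± 0.29, adjusted p = 0.00282) and a mean of 371 ± 59.1 CPM in TH2.

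In Ipcef1 it was Bcl6KO that stood clear of the TH2 range, with a log2 ratio to Il4KO of 2.60 ± 0.55 (adjusted p = 0.0178). Klf2 lay on opposite sides, at 53.2 and 109 CPM in Bcl6KO, 129 to 182 CPM in TH2 and 338 and 339 CPM in Il4KO, and the ratio of Bcl6KO to Il4KO was -2.06 ± 0.46 (adjusted p = 0.0341). Timp2 had no count in Bcl6KO and 7.10 and 2.41 CPM in Il4KO (adjusted p = 0.0341). In the fit of these 4 libraries alone none of the 8 genes was called.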

How the data were processed

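Per the submitters' processing notes, Bowtie 0.12.2, STAR 2.7.0c and featureCounts 1.6.0 were used with builds mm10, GRCm38.p6 and mm9. Which tool made which file, and whether strand was used, are "not given in the sources used here". Per the file headers, the deposited values are whole counts per gene. The 8 RNA-seq libraries were not used here. Symbols came from a table of gene identifiers and names, and coordinates from GENCODE M21: 479 of 55573 gene rows had no symbol and held 1.13% of counts. All 22 QuantSeq libraries (9 groups, 13 residual degrees of freedom) were fitted together with edgeR 4.0.16 in R 4.3.3: TMM factors, filterByExpr (minimum count 10, minimum total 15), quasi-likelihood fits (robust) and 2-sided tests, with Benjamini-Hochberg adjustment over all genes. Genes under 0.05 after adjustment are the calls. The biological coefficient of variation was 1.26. A fold against an empty group sets the other group's mean CPM against 3 counts per empty library. SEs come from the fit, and depth limits cover counting error only.

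Genes were named by rule: Bcl6, Il4, Il13, Gata3, Prdm1, Id2, Cxcr5, Pdcd1 and Il21; all called genes; in each direction the genes of smallest p without overlap, until 15 with the called ones; and list members with an unadjusted p under 0.05 or the highest levels. Predicted genes were not named, and some genes that the rule takes are not reported here. Other genes named were chosen after their values were seen. List counts cover the members that were tested. Members and lists were chosen with earlier results of these data known. Alternatives were DESeq2 1.42.0, other size factors and filters, fewer libraries and libraries left out. The scripts were tested on simulated data.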

Additional observations from a re-analysis of the deposited data

Results flagged for a closer look

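Among 75 genes chosen by the naming rule, 4 had a TH2 library far from the other 3 by Dixon's criterion. A gene found in a single TH2 library meets this criterion whatever its level. The usual chance rate of about 1 in 20 groups therefore does not hold for such sparse genes. Il4 was found in TH2 replicate 3 at 13.7 CPM and in none of the other TH2 libraries. Ifit3 stood at 4.43 CPM in TH2 replicate 2. Pmaip1, at 1.37 CPM, and Zgpat, at 0.342 CPM, were found in TH2 replicate 3 only.

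Bcl6KO and Il4KO cells, set against the same TH2 libraries, differed by the test of the difference itself in 8 genes. Higher in Bcl6KO were Klf4 (67 counts in Bcl6KO and none in Il4KO, fitted log2 ratio 8.30), Itpr1 (7.18, with 167 counts and 1), Nlrc5 (6.47), Ipcef1 (2.60), Pttg1 (2.57) and Hspa5 (1.48). Lower were Timp2 (-6.86, none in Bcl6KO and 30 counts in Il4KO) and Klf2 (-2.06). The fitted ratios of genes with an empty group depend on the prior count and are no bounds. The 2 groups also differ in the hCD2 gate and in sex transcripts, with Ddx3y at 82.8 and 72.4 CPM in Il4KO and no count in Bcl6KO, so these cannot be told apart from genotype.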

How the results depend on the processing

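No paired analysis was possible because the labels give no replicate numbers. The 3 calls between Bcl6KO and TH2 stayed 3 with DESeq2 size factors and were 2 among genes of at least 20 CPM, 17 without a filter (3 higher, 14 lower), 125 with DESeq2 (16 higher, 109 lower) and 1 in the fit of the 6 libraries. They were 80 against TH2 replicates 1 and 2, 51 against replicates 3 and 4, and 6 to 39 with a library left out (37, 39, 11 and 30 without TH2 replicates 1 to 4, 39 and 6 without Bcl6KO replicates 1 and 2). Of the 3 called genes, 1 was called in the fit of the 6 libraries and 2 to 3 with a library left out. Against Il4KO the 8 calls became 20 without a filter, 3 at 20 CPM, 0 in the fit of 4 libraries (363 genes with an unadjusted p under 0.05), 76 with DESeq2 and 14 to 38 with a library left out. The 325 calls against TFH CXCR5hi became 836 with DESeq2 and 187 to 366 with a library left out. The fit of fewer libraries has fewer degrees of freedom; the cause of the other shifts was not tested. With a library left out, log2 ratios ran from -3.29 to 7.44 for Pmaip1 and -2.46 to 7.56 for Il1rl1 (below 0 without Bcl6KO replicate 1), and from -1.14 to 5.10 for Hbb-bt, -5.09 to 4.30 for Il13 and -0.082 to 0.27 for Gata3 (below 0 without Bcl6KO replicate 2). Signs also turned against TH2 replicates 1 and 2 for Gata3 (-0.0037), and against replicates 3 and 4 for Ccna2 (2.37) and Prdm1 (0.22).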

Other observations

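S100 family and actin-binding genes, listed after S100a4 and Cotl1 had been seen to be low, are given as a description. Of 20 tested, 1 fell (S100a4), 19 had a log2 ratio under 0, 5 had both Bcl6KO libraries under all TH2 libraries, and the median was -0.35 against -0.044 over all genes. Both Bcl6KO libraries lay under all TH2 libraries for 4.32% of all genes and above them for 5.28%. Of all genes, 40.4% had a log2 ratio above 0. Zyx, the focal adhesion protein zyxin, held 94.9, 75.6, 46.2 and 85.0 CPM in TH2 replicates 1 to 4 and 24.8 and 1.89 CPM in Bcl6KO (adjusted p = 0.572). Actg1, gamma actin, held 638, 574, 338 and 191 CPM in TH2 and 219 and 191 CPM in Bcl6KO. S100a10 was the member above 0, at 635 and 458 CPM against 285 to 712 CPM. Several of these genes, S100a6 and Vim among them, also differ between the TH2 pairs.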
